A study of Mus musculus with 18 samples.

Results

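The acute phase proteins of the mouse liver were followed through 10 genes: the serum amyloid A genes Saa1, Saa2, Saa3 and Saa4, the orosomucoid genes Orm1 and Orm2, Lcn2 (lipocalin 2), Hp (haptoglobin) and the pentraxin genes Crp (C-reactive protein) and Apcs (serum amyloid P component). They were chosen by name, and all 10 were found among the 16245 genes of the count table. Bulk RNA sequencing was done on 18 livers of wild-type C57BL/6 mice, males on the C57BL/6J background according to the methods of the study, all of them on a NASH diet high in fat and fructose and housed near 29 °C from 8 weeks of age. Vehicle mice (n = 6) received the buffer, GDF15 mice (n = 6) received recombinant growth differentiation factor 15 under the skin once daily, and pair-fed mice (n = 6) received each day the amount of food that GDF15 mice had eaten the day before. The protocol lists doses of 0.3, 1 and 5 nmol/kg, and the labels do not say which dose each sequenced mouse received. The paper names 1 nmol/kg for these livers in one place and 5 nmol/kg in another, so the dose is not settled here. No lean or chow-fed group was analysed here, so all 3 groups share the diet.

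In the acute phase response, interleukin 6, acting through the gp130 receptor and STAT3, and interleukin 1 and tumour necrosis factor, acting through NF-kB and C/EBP factors, drive hepatocytes to change their output of plasma proteins. In mice, serum amyloid A1 and A2 and serum amyloid P are the classical strong responders, whereas C-reactive protein responds little and Saa4 is regarded as constitutive. Orosomucoids bind small molecules, lipocalin 2 binds bacterial siderophores and haptoglobin captures free haemoglobin, and the same stimuli lower the output of negative acute phase proteins such as albumin.

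The 4 serum amyloid A genes lie side by side on chromosome 7 of GRCm38 in the GENCODE annotation, with Saa3 at chr7:46711998-46715700, Saa4 at chr7:46727998-46732603 and Saa1 at chr7:46740497-46742980 on the minus strand and Saa2 at chr7:46751790-46754313 on the plus strand. Orm1 (chr4:63344560-63348163) and Orm2 (chr4:63362449-63365878) are on the plus strand of chromosome 4, on either side of Orm3. Crp (chr1:172698055-172833031, plus strand) and Apcs (chr1:172893961-172895041, minus strand) neighbour each other on chromosome 1, Lcn2 lies at chr2:32384633-32388252 and Hp at chr8:109575128-109579172, both on the minus strand. RefSeq promoter windows (GRCm38.p6) were at hand for 8 of the 10 members. The sequences that follow compare Saa1, Saa2 and Orm2, whose levels differed widely between mice, with Saa4 and Crp, whose levels differed by group. Each line holds bases upstream of the RefSeq start, 5′ to 3′ on the gene's strand and ending before any annotated exon, and capitals mark the letters TTGCNNAA of a C/EBP motif on either strand. Their positions are chr7:46742981-46743230 (Saa1, minus), chr7:46751583-46751789 (Saa2, plus), chr4:63362199-63362448 (Orm2, plus), chr7:46732604-46732853 (Saa4, minus) and chr1:172697806-172698054 (Crp, plus).
Saa1: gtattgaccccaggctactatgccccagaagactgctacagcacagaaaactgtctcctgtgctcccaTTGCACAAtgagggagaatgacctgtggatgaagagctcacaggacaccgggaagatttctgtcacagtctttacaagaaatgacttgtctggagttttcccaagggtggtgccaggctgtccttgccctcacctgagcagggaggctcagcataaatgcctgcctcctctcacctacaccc
Saa2: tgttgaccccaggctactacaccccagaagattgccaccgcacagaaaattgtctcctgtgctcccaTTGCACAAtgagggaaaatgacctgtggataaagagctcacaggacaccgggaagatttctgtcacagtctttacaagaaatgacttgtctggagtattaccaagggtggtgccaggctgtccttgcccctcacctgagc
Orm2: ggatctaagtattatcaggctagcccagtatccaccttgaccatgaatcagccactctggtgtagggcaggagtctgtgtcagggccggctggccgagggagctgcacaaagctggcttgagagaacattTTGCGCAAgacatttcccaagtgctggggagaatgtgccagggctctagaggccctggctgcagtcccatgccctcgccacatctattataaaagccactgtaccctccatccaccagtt
Saa4: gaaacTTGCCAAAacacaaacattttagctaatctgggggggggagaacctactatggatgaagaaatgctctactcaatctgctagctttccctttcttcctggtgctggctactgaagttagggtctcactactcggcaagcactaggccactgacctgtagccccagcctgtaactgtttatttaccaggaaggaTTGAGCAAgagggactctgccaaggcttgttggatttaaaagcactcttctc
Crp: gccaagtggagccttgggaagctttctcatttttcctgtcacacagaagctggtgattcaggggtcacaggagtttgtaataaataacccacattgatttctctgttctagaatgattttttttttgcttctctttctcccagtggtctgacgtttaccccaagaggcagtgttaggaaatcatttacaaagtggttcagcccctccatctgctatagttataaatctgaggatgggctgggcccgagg
The 250 bases upstream of Saa1 and of Saa2 were identical at 238 aligned bases, with 11 mismatches and 2 gap positions, and both held TTGCACAA at nearly the same place, 182 and 183 bases before the start. The C/EBP letters occurred once each in Saa1, Saa2, Saa3, Orm2 and Lcn2, at 2 places in Saa4, and in neither Crp nor Apcs, while 9.56% of all 32851 promoter windows of 250 bases held them. The Lcn2 window (chr2:32387740-32387989) lay within the annotated gene and began in an exon, so its match is not in sequence upstream of all exons. The STAT letters TTCNNNGAA occurred in Apcs alone among the 8 windows (7.02% of all windows) and the NF-kB letters GGANTTTCC in none of the 8 (1.07% of all windows). Only these exact letters were searched, so a window without a match may hold another form of a site. These matches describe letters only, and Saa4, which held the C/EBP letters too, had the lowest Pearson r with Saa1 of the 9 relations given below.

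Totals ran from 16508864 to 35301853 counts per liver, and levels are given below as normalized counts, that is counts divided by the size factor of the library. All 7 hepatocyte markers were present in every group, with a summed level of 1439910 to 1851900 normalized counts in vehicle, 1297370 to 2085960 in pair-fed and 2060810 to 2413990 in GDF15 livers, so that GDF15 lay above every vehicle liver. Most of that sum was Alb (vehicle median 1254120 of 1678620). Over 10883 genes with a mean of at least 50 normalized counts, GDF15 mouse 4 stood apart from its group on the high side in 203 genes (1.87%) and on the low side in 80 (0.735%). The other 17 livers did so on the high side in 23 to 156 genes and on the low side in 7 to 92, the upper end of both being pair-fed mouse 4. That liver bears on most of what follows, and results are given with and without it.

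With all 18 livers, 3 of the 10 members were higher in GDF15 than in vehicle livers (Saa2, Saa4 and Crp) and none was lower, by DESeq2 at an adjusted p below 0.05. Over all 14667 genes tested, 15.8% were called higher and 17.5% lower in this comparison. Against pair-fed livers 4 members were higher (Saa1, Saa2, Saa4 and Crp), where 13.3% of 14353 genes were called higher and 13.8% lower. With a log2 fold change above 1 added to the rule, Saa2 remained in the first comparison (0.900% of all genes called) and Saa1 and Saa2 in the second (0.627% called). Between pair-fed and vehicle livers no member was called by DESeq2 in either direction, nor was any of the 16242 genes tested (0% higher and 0% lower), while 718 genes had an unadjusted p below 0.05 and none of the members did (DESeq2 gave no p for Lcn2). edgeR also called no member there. The GDF15 comparisons share the 6 GDF15 livers, and are not separate evidence.

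**Figure D1:**
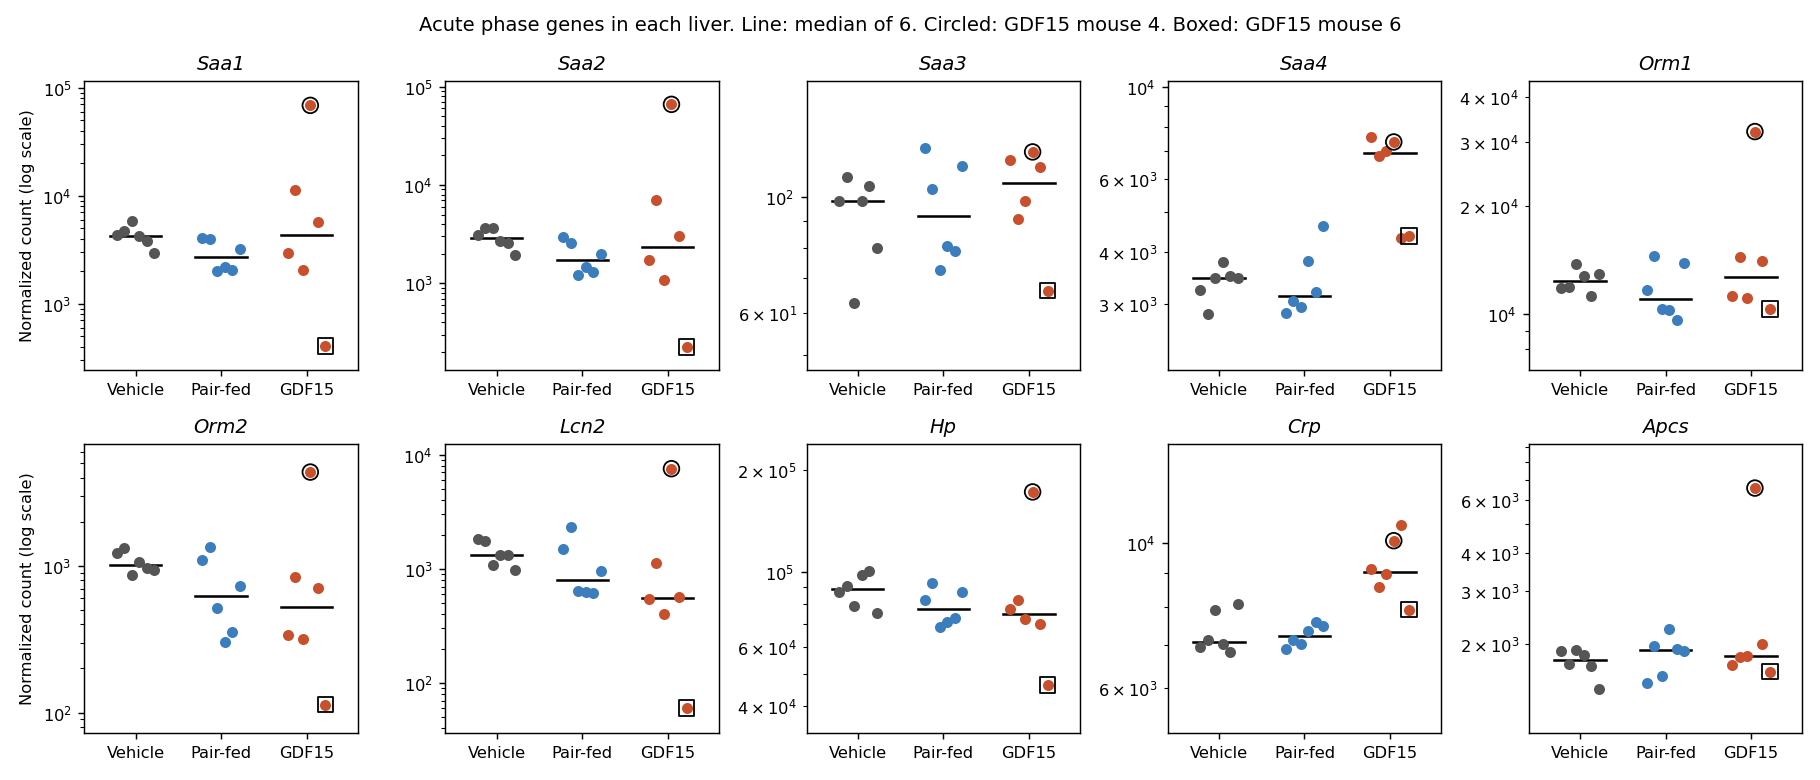
Normalized counts (log axis) of the 10 acute phase genes in each of 18 livers, one point per mouse, with the median of each group of 6 as a line. GDF15 mouse 4 (circled) was the highest of all 18 livers in 7 genes and GDF15 mouse 6 (boxed) the lowest of all 18 in 5, while Saa4 and Crp were raised across the GDF15 group. The share of all genes with such extremes was not counted.

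Saa1 and Saa2, the apolipoproteins of the acute phase, spread far more between GDF15 mice than between controls. Saa1 ran from 2933 (median 4249) to 5779 normalized counts in vehicle livers, from 2018 (median 2680) to 4039 in pair-fed livers, and from 407 (median 4341) to 68458 in GDF15 livers. The GDF15 median was thus close to that of vehicle, while its lowest and highest livers lay outside both other groups. Individual GDF15 livers held 2968, 11370, 2042, 68458, 5713 and 407 normalized counts for mice 1 to 6. Mouse 4 was 15.9-fold above the vehicle mean and mouse 6 was 10.5-fold below it. The SD of log2 values was 0.32 in vehicle, 0.47 in pair-fed and 2.49 in GDF15 livers, and still 1.81 in the 5 GDF15 livers other than mouse 4.

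Saa2 followed Saa1 closely. It ran from 1953 (median 2906) to 3674 normalized counts in vehicle, from 1205 (median 1713) to 2979 in pair-fed and from 225 (median 2361) to 66104 in GDF15 livers. Mouse 4 was 22.5-fold above and mouse 6 was 13.0-fold below the vehicle mean. The transcripts of the 2 genes share 132 31-base words, 22.8% of those of Saa1 and 21.2% of those of Saa2, so some reads cannot be assigned to one of them with certainty. Their sum showed the same spread, 4886 to 9431 in vehicle, 3224 to 7018 in pair-fed and 633 to 134562 normalized counts in GDF15 livers, and Saa1 made up 50.9 to 65.6% of it in GDF15 and 56.2 to 61.3% in vehicle livers.

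The fitted difference between groups rested on mouse 4. For Saa2 the log2 fold change against vehicle was 2.17 ± 0.86 (SE, DESeq2 adjusted p = 0.0384), and −0.16 ± 0.56 without mouse 4 (DESeq2 adjusted p = 0.859). For Saa1 it was 1.82 ± 0.77 (DESeq2 adjusted p = 0.0527) and 0.07 ± 0.54 without mouse 4. Against pair-fed livers the values were 2.38 ± 0.77 for Saa1 (DESeq2 adjusted p = 0.0106) and 2.79 ± 0.86 for Saa2 (DESeq2 adjusted p = 0.00726), which became 0.63 ± 0.54 and 0.46 ± 0.56 without mouse 4, neither passing. The call of Saa2 against vehicle was also lost in edgeR (adjusted p = 0.0618) and on leaving out vehicle mouse 1, 2, 4, 5 or 6 singly (DESeq2 adjusted p = 0.0565 to 0.0700), with the log2 fold change at 2.07 to 2.24. Without GDF15 mouse 2, DESeq2 gave no p for Saa1 or Saa2. Saa1 against vehicle passed on leaving out GDF15 mouse 1, 3 or 6 singly (DESeq2 adjusted p = 0.0355, 0.0315 and 0.0107).

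Saa4, the constitutive member of the family and carried on high-density lipoprotein, rose across the GDF15 group. It ran from 2838 (median 3467) to 3777 normalized counts in vehicle livers, from 2854 (median 3135) to 4632 in pair-fed livers and from 4326 (median 6920) to 7559 in GDF15 livers. All 6 GDF15 livers lay above every vehicle liver, and 4 of 6 above every pair-fed liver. The log2 fold change was 0.88 ± 0.15 (SE) against vehicle (DESeq2 adjusted p = 9.87e-08) and 0.87 ± 0.15 against pair-fed (DESeq2 adjusted p = 2.55e-07). Without mouse 4 these were 0.83 and 0.82, and both passed (DESeq2 adjusted p = 1.74e-06 and 3.76e-06). GDF15 mice 5 and 6, at 4326 and 4378 normalized counts, were lower than the other 4, which held 6822 to 7559.

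Saa3, the form made largely by macrophages and fat, was low in all groups, at 62.8 to 109 normalized counts in vehicle, 72.7 to 124 in pair-fed and 66.3 to 122 in GDF15 livers. The groups overlapped throughout, and its log2 fold change of 0.13 ± 0.17 against vehicle did not pass (DESeq2 adjusted p = 0.590). Mouse 4 had 122 normalized counts of Saa3, against 66.3 to 118 in the other GDF15 livers. The surge in Saa1 and Saa2 was thus not shared by Saa3, which lies beyond Saa4 on the same chromosome.

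**Figure D2:**
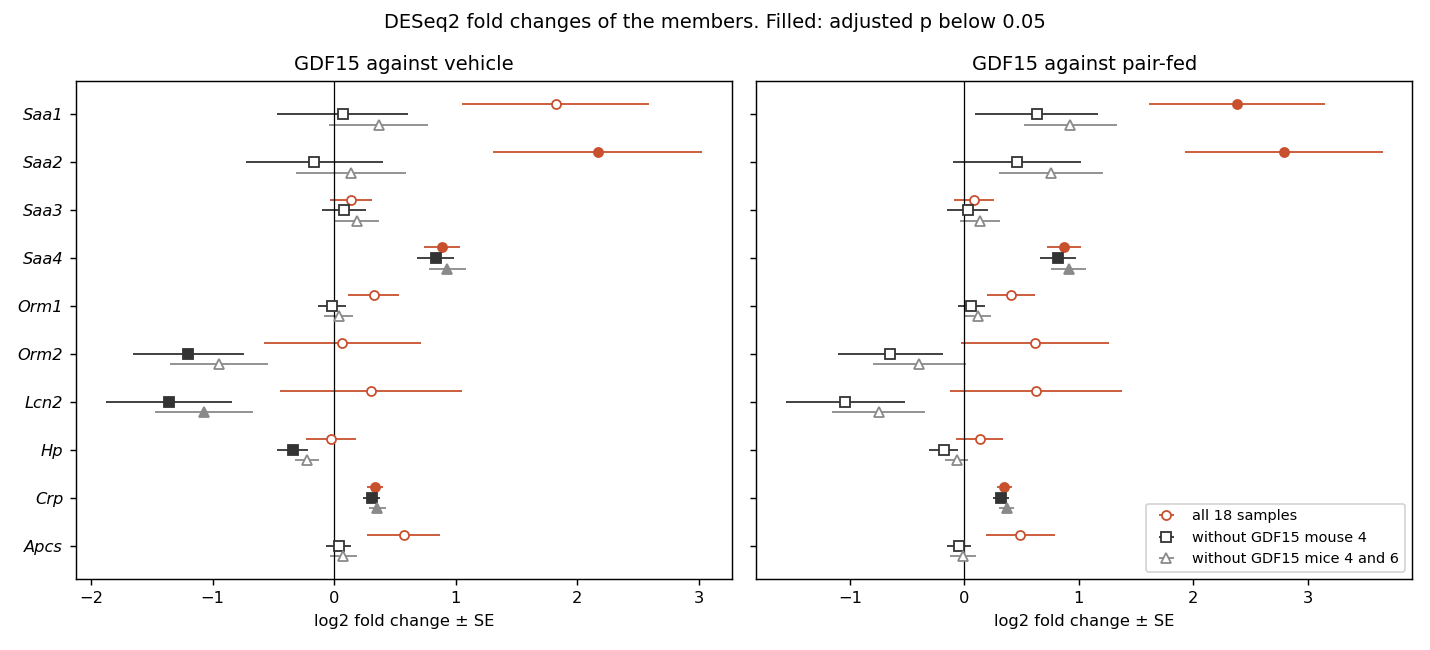
DESeq2 log2 fold changes (x axis, ± SE) of the 10 members for GDF15 against vehicle and against pair-fed livers, with all 18 samples (circles), without GDF15 mouse 4 (squares) and without GDF15 mice 4 and 6 (triangles), filled where the adjusted p was below 0.05. Saa4 and Crp stayed in place in all 3 fits, whereas Saa1 and Saa2 lay nearer to 0 without mouse 4 and Orm2 and Lcn2 moved below 0 against vehicle.

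Among the orosomucoids, Orm1, the abundant form, was similar in most livers. It ran from 11218 (median 12341) to 13805 normalized counts in vehicle, from 9663 (median 11028) to 14500 in pair-fed and from 10343 (median 12677) to 32071 in GDF15 livers. Mouse 4 held the value of 32071, and the next highest GDF15 liver held 14405. The log2 fold change against vehicle was 0.32 ± 0.21 (DESeq2 adjusted p = 0.237), and −0.02 ± 0.12 without mouse 4 (DESeq2 adjusted p = 0.918). Orm2, a close relative that was much lower in these livers, ran from 868 (median 1015) to 1319 normalized counts in vehicle, from 303 (median 627) to 1339 in pair-fed and from 113 (median 522) to 4365 in GDF15 livers. All 5 GDF15 livers other than mouse 4 lay below every vehicle liver, and mouse 4 lay above every one. With all livers the log2 fold change was 0.07 ± 0.65 (DESeq2 adjusted p = 0.952), and without mouse 4 it was −1.20 ± 0.46 (DESeq2 adjusted p = 0.0312). Without mice 4 and 6 together it was −0.95 ± 0.41 and did not pass (DESeq2 adjusted p = 0.0638). Since mouse 4 was set aside for its high values, the p without it is not a test of a fall. Against pair-fed livers, which reached down to 303, the value without mouse 4 was −0.65 ± 0.46 and did not pass (DESeq2 adjusted p = 0.305). Transcripts of Orm1 and Orm2 share 205 31-base words, 27.5% of each, so a small part of Orm1 counted as Orm2 would weigh on the latter. The sum of Orm1, Orm2 and Orm3 ran from 12282 to 14832 in vehicle and from 10489 to 36789 normalized counts in GDF15 livers.

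Lcn2 showed the same split. It ran from 971 (median 1329) to 1844 normalized counts in vehicle, from 615 (median 802) to 2318 in pair-fed and from 60.3 (median 555) to 7558 in GDF15 livers. Mouse 4 was 5.46-fold above and mouse 6 was 23.0-fold below the vehicle mean, and 4 of 6 GDF15 livers lay below every vehicle liver. DESeq2 gave no p for Lcn2, since its rule on single samples of high influence removed it. Fitted without that rule, the log2 fold change against vehicle was 0.30 ± 0.75 (DESeq2 adjusted p = 0.792). Without mouse 4 it was −1.36 ± 0.52 (DESeq2 adjusted p = 0.0317), and without mice 4 and 6 it was −1.07 ± 0.41 (DESeq2 adjusted p = 0.0330). As for Orm2, livers were set aside for their values here, so these p-values are not tests of a fall. Against pair-fed livers the fit gave 0.63 ± 0.75 with all livers and −1.04 ± 0.52 without mouse 4 (DESeq2 adjusted p = 0.125). Lcn2 is also a granule protein of neutrophils. Of 11 neutrophil markers 10 were in the table, and Ly6g was not. Their summed level was 91.0 to 173 normalized counts in vehicle, 89.4 to 124 in pair-fed and 76.4 to 154 in GDF15 livers, with 154 in mouse 4 and 90.4 in mouse 6. By vehicle medians, Csf3r held 53.4 and Cxcr2 47.2 of a sum of 126. Every other neutrophil marker was at 21.6 normalized counts or less in all livers, so the sum says little about them. The neutrophil part of the Lcn2 signal was not tested.

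Hp, the most abundant member, ran from 75602 (median 89089) to 100322 normalized counts in vehicle, from 68482 (median 77714) to 92842 in pair-fed and from 46337 (median 75063) to 172077 in GDF15 livers. Mouse 4 had 1.95-fold the vehicle mean and mouse 6 was 1.91-fold below it, both outside the range of the controls. The log2 fold change against vehicle was −0.03 ± 0.21 with all livers (DESeq2 adjusted p = 0.940) and −0.34 ± 0.13 without mouse 4 (DESeq2 adjusted p = 0.0262). It did not pass without mice 4 and 6 together (−0.22 ± 0.10, DESeq2 adjusted p = 0.0761). The p without mouse 4 carries the same limit as for Orm2.

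Of the 2 pentraxins, pattern-recognition proteins that bind bacteria and damaged cells, Crp rose in the GDF15 group. It ran from 6818 (median 7059) to 8066 normalized counts in vehicle, from 6888 (median 7226) to 7579 in pair-fed and from 7916 (median 9049) to 10679 in GDF15 livers. All 6 GDF15 livers lay above every pair-fed liver and 5 of 6 above every vehicle liver. The log2 fold change was 0.34 ± 0.07 (SE) against vehicle (DESeq2 adjusted p = 1.23e-05) and 0.35 ± 0.07 against pair-fed (DESeq2 adjusted p = 6.38e-06), a 1.26-fold and a 1.28-fold difference. The annotated Crp gene overlaps another annotated gene, Gm38051, on the same strand. Apcs, the pentraxin that responds strongly in mice, ran from 1419 (median 1772) to 1911 normalized counts in vehicle, from 1479 (median 1906) to 2244 in pair-fed and from 1616 (median 1816) to 6573 in GDF15 livers. Mouse 4 held 6573 and the other 5 GDF15 livers 1616 to 1987, within the range of the pair-fed livers. Its log2 fold change against vehicle was 0.57 ± 0.30 (DESeq2 adjusted p = 0.135) and 0.04 ± 0.10 without mouse 4.

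In mouse 4 the responders stood together. Ranked by how far mouse 4 exceeded the next highest GDF15 liver, among 10883 genes, Saa2 was 1, Lcn2 was 2, Saa1 was 3, Orm2 was 4 and Apcs was 9, followed by Orm1 at 27 and Hp at 33. Saa3, Saa4 and Crp were at 1722, 3053 and 3854. In Saa2 the excess was 3.22 on the log2 scale, in Lcn2 2.75 and in Saa1 2.59. Mouse 6 was the lowest GDF15 liver in 9 of the 10 members, the exception being Saa4. How often mouse 6 was lowest over all genes was not counted. Several members moved together, so these 9 are not separate results.

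Variation within groups joined the same genes. Each liver's log2 value was taken as its deviation from the mean of its group, and 9 relations to Saa1 were computed over 18 livers. Saa2 (Pearson r = 0.996, Spearman rho = 0.977), Lcn2 (r = 0.959, rho = 0.839), Orm2 (r = 0.938, rho = 0.849), Hp (r = 0.906, rho = 0.610) and Orm1 (r = 0.871, rho = 0.779) moved with Saa1. Permutation within groups gave p = 1e-05 for both measures of Saa2, the smallest value it can give, 5e-05 and 0.001 for Orm2 and 6e-05 and 0.00157 for Orm1, for r and rho in turn (at most 0.00353 after Benjamini-Hochberg adjustment over the 9 relations). It gave, for Lcn2, p = 2e-05 for r and 0.00036 for rho (9e-05 and 0.00162 adjusted). For Hp the permutation p was 0.00079 for r and 0.0116 for rho (0.00142 and 0.0209 adjusted). After leaving out GDF15 mice 4 and 6, the 2 livers farthest from the median, r over the other 16 was 0.985 for Saa2, 0.777 for Orm2, 0.753 for Lcn2, 0.685 for Orm1 and 0.451 for Hp. Over the 12 vehicle and pair-fed livers r was 0.972, 0.752, 0.772, 0.681 and 0.592 in the same order, so the relation was present without any GDF15 liver. Apcs (r = 0.755, permutation p = 0.0149, and rho = 0.412, p = 0.106) fell to 0.133 without mice 4 and 6, and its relation rests on those livers. Saa3 (r = 0.502, permutation p = 0.0452, and rho = 0.486, p = 0.0592) fell to 0.137 without those livers and was at 0.453 over the 12 vehicle and pair-fed livers. Saa4 (r = 0.365, permutation p = 0.361, rho = 0.00) and Crp (r = 0.476, permutation p = 0.189, rho = 0.117) did not pass.

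**Figure D3:**
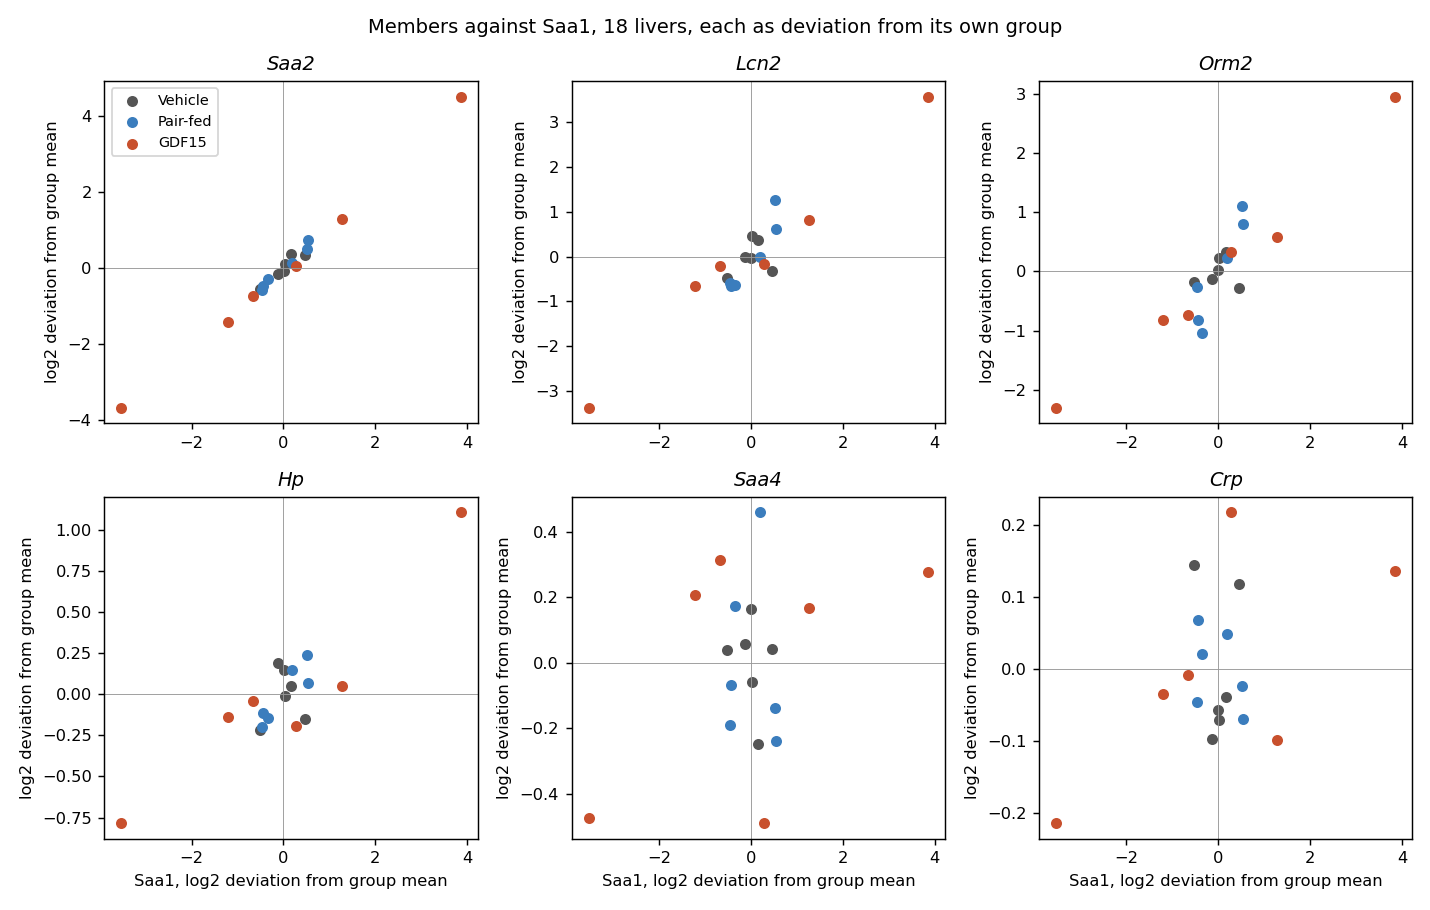
Deviation of each liver from the mean of its group, on the log2 scale, for 6 members (y axes) against Saa1 (x axis), with 6 points per group. Saa2, Lcn2, Orm2 and Hp rise with Saa1 (r = 0.996, 0.959, 0.938 and 0.906), GDF15 mice 4 and 6 sit at the 2 ends, and Saa4 and Crp show no such line.

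Outside the 10 members, the genes whose deviations most resembled them over the 18 livers included other plasma protein genes of the acute phase. Among 10873 genes, Fgl1 (r = 0.887) and Clu (r = 0.882) were nearest to Saa1, Hpx (r = 0.895) and Clu (r = 0.893) to Saa2, Clu (r = 0.929) and Tmem176a (r = 0.917) to Orm2, and Tmem176a (r = 0.959) and Clu (r = 0.919) to Lcn2. Itih3 (r = 0.927) and Fgl1 (r = 0.917) were nearest to Orm1, Hpx (r = 0.959) and Tmem176a (r = 0.942) to Hp, and Dnajc12 (r = 0.928) and Hpx (r = 0.910) to Apcs. Fbxo36 (r = 0.913) and Rab4b (r = 0.875) were nearest to Saa4, Polr3e (r = 0.813) and Mon1a (r = 0.797) to Crp, and Galnt2 (r = 0.828) and Cadm1 (r = 0.827) to Saa3. These were picked as the highest of many and carry no test.

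Per kilobase of the longest coding transcript, the mean level in vehicle livers fell in the order Hp (65767 normalized counts per kb), Orm1 (16022), Saa1 (7049), Saa2 (4511), Crp (4313), Apcs (1793), Saa4 (1615), Lcn2 (1513), Orm2 (1371) and Saa3 (42.0). Median levels in GDF15 livers put Saa4 at 3304 per kb against 3620 for Saa2, whose mean in vehicle livers was 4511. The longest transcripts of Saa3 and Saa4 have 2200 and 2094 bases, against 609 and 652 for Saa1 and Saa2. The longest transcript need not be the one expressed, so the order depends on this choice. Saa2 and Crp, and Apcs, Saa4, Lcn2 and Orm2, are close enough in this order that their spread between livers covers the gap.

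The genes that signal to these proteins were read from 7 lists. Over all genes tested, 15.8% were called higher and 17.5% lower against vehicle, and 13.3% and 13.8% against pair-fed. The counts without mouse 4 below have no such share beside them. Among 10 cytokine ligands, 8 were in the table, Il6 and Il22 were not, and 7 were tested. None was higher and 3 were lower in GDF15 than in vehicle livers, with a median log2 fold change of −0.79 against 0.00 over all genes. Clcf1, a gp130 ligand, fell from 92.1–243 normalized counts in vehicle livers to 31.3–58.9 (log2 fold change −1.76 ± 0.22, DESeq2 adjusted p = 5.69e-13) without overlap. Lif, another gp130 ligand, fell from 8.88–23.3 normalized counts in vehicle livers to 2.05–4.82 in GDF15 livers (DESeq2 adjusted p = 8.49e-06). The GDF15 livers held only 2 to 4 counts of Lif each, about the floor of 3 counts, so no fold is given. Il1rn, the interleukin 1 receptor antagonist, fell by 0.79 (DESeq2 adjusted p = 0.00171). Il1b ran from 2.57 to 35.5 normalized counts in GDF15 and 14.4 to 52.6 in vehicle livers and did not pass (DESeq2 adjusted p = 0.0972). Tnf was at 0 to 9.09 and 2.33 to 12.5 normalized counts, near the same floor, which is 1.75 to 3.90 normalized counts per library. Against pair-fed livers 0 ligands were higher and 3 were lower. Without mouse 4 the lower ligands numbered 4 against vehicle and 2 against pair-fed.

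Of 10 cytokine receptors, 6 were higher and 2 lower against vehicle, and 5 and 1 against pair-fed (medians 0.37 and 0.43). Il6ra, which binds interleukin 6, held 530 to 1251 normalized counts in vehicle, 460 to 1545 in pair-fed and 1168 to 2066 in GDF15 livers (log2 fold change 0.99 ± 0.29, DESeq2 adjusted p = 0.00411). Il6st, the gp130 subunit, rose by 0.15 (DESeq2 adjusted p = 0.0245), Il1rap, the interleukin 1 co-receptor, by 0.75 (DESeq2 adjusted p = 2.89e-10), and Il10rb fell by 0.90 (DESeq2 adjusted p = 2.52e-08). Of 14 signal and transcription factors, 4 were higher and none lower in both comparisons (medians 0.14 and 0.07). Stat3 rose by 0.48 ± 0.15 against vehicle (DESeq2 adjusted p = 0.00578) and by 0.79 ± 0.15 against pair-fed (DESeq2 adjusted p = 2.80e-06). Cebpb rose by 0.47 ± 0.17 and 0.73 ± 0.17 (DESeq2 adjusted p = 0.0223 and 0.000280), and Nr3c1, the glucocorticoid receptor, by 0.21 against vehicle (DESeq2 adjusted p = 0.00257). Cebpd was at 0.07 ± 0.22 (DESeq2 adjusted p = 0.840), and Cebpa and Creb3l3, the most abundant genes of the list, were at 0.22 and 0.13 and did not pass. Without mouse 4 the counts for receptors and factors were the same. Without mice 4 and 6 together, 3 factors were higher against vehicle and 4 against pair-fed. Mouse 4 was the highest GDF15 liver for Il6ra (2066), Stat3 (4902) and Cebpb (5514 normalized counts). Fold changes of these genes without it are not given.

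Of 9 feedback inhibitors, none was higher and 1 lower in both comparisons, where 17.5% and 13.8% of all genes were called lower. Tnfaip3, the A20 brake on NF-kB, fell by 0.88 against vehicle (DESeq2 adjusted p = 1.34e-06). Socs3, the STAT3 feedback gene, ran from 128 to 833 normalized counts in vehicle and from 264 to 578 in GDF15 livers, overlapping (log2 fold change 0.46 ± 0.42, DESeq2 adjusted p = 0.429). Nfkbia, Cish and Pias3 were at 0.00, −0.10 and 0.21 and did not pass. Without mouse 4, 1 inhibitor was higher and 1 lower in both comparisons.

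Of 19 other positive acute phase genes of the liver, 12 were higher and 2 lower in both comparisons (medians 0.48 and 0.61). C3, the central complement component, ran from 85020 to 104565 normalized counts in vehicle and from 128562 to 246823 in GDF15 livers without overlap (log2 fold change 0.75 ± 0.12, DESeq2 adjusted p = 4.76e-08). Agt, the angiotensin precursor, rose by 0.45 (DESeq2 adjusted p = 6.11e-09), while Hpx, which binds haem, ran from 86981 to 105259 in vehicle and from 55574 to 182803 normalized counts in GDF15 livers (log2 fold change −0.08 ± 0.20, DESeq2 adjusted p = 0.790). Without mouse 4, 11 were higher and 4 lower against vehicle. Of 12 negative acute phase genes, 9 were higher and none lower against vehicle, and 8 and none against pair-fed (medians 0.45 and 0.45). Ahsg (fetuin A) rose by 0.64, Pon1 by 0.56 and Alb by 0.42 against vehicle (DESeq2 adjusted p = 1.13e-13, 5.85e-08 and 0.00107), and Trf (transferrin) was at 0.05 ± 0.09. Most genes that the acute phase raises and most genes that it lowers were thus called higher, where 15.8% of all genes were, and no test of a list was made. Hepatocyte markers, of which Alb, Apoa1 and Ttr are also in the negative list, were higher in sum in GDF15 than in vehicle livers. The summed level of cholangiocyte markers was 2372 to 8649 normalized counts in vehicle against 1030 to 2097 in GDF15 livers, and that of stellate cell markers 2492 to 4372 against 1260 to 1948. That of adipocyte markers was 45.5 to 278 against 10.3 to 16.4 (Lep was not in the table). By vehicle medians, Spp1 held 4723 of a cholangiocyte sum of 5131, and Cfd 99.0 of an adipocyte sum of 101. Hepatocyte Alb, Hnf4a and Cps1, cholangiocyte Spp1, stellate Col1a1 and adipocyte Cfd did not overlap between GDF15 and vehicle livers. All other markers of these types did, with Adipoq, Plin1 and Retn near the floor. Macrophage and endothelial marker sums overlapped (3370 to 6857 against 2276 to 4574, and 2406 to 3176 against 1880 to 3361). Of their single markers, macrophage Cd68 (201 to 347 against 96.4 to 190) and endothelial Lyve1 (142 to 265 against 86.8 to 133) were lower without overlap. The other macrophage and endothelial markers overlapped. How many of all genes did not overlap was not counted. In bulk tissue, a different number of cells of a type and a different amount of RNA per cell cannot be told apart, and the part of cell mixture in the levels of Saa4, Crp and these lists was not tested.

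Of 12 receptors and partners of the members, 2 were higher and 5 lower against vehicle and 1 and 2 against pair-fed (medians −0.49 and −0.37). The shares of all genes called higher and lower were 15.8% and 17.5% against vehicle and 13.3% and 13.8% against pair-fed. Tlr2, which serum amyloid A can engage, fell by 1.34 and Fcgr1, a receptor that pentraxins bind, by 1.10 against vehicle (DESeq2 adjusted p = 9.77e-09 and 2.81e-06). Without mouse 4, 3 were higher and 3 lower against vehicle. Scarb1, the high-density lipoprotein receptor, rose by 0.26 (DESeq2 adjusted p = 0.00430), and Fcgr2b was at 0.30 ± 0.16 and did not pass. In pair-fed against vehicle livers no gene of any of the 7 lists was called by DESeq2.

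**Figure D4:**
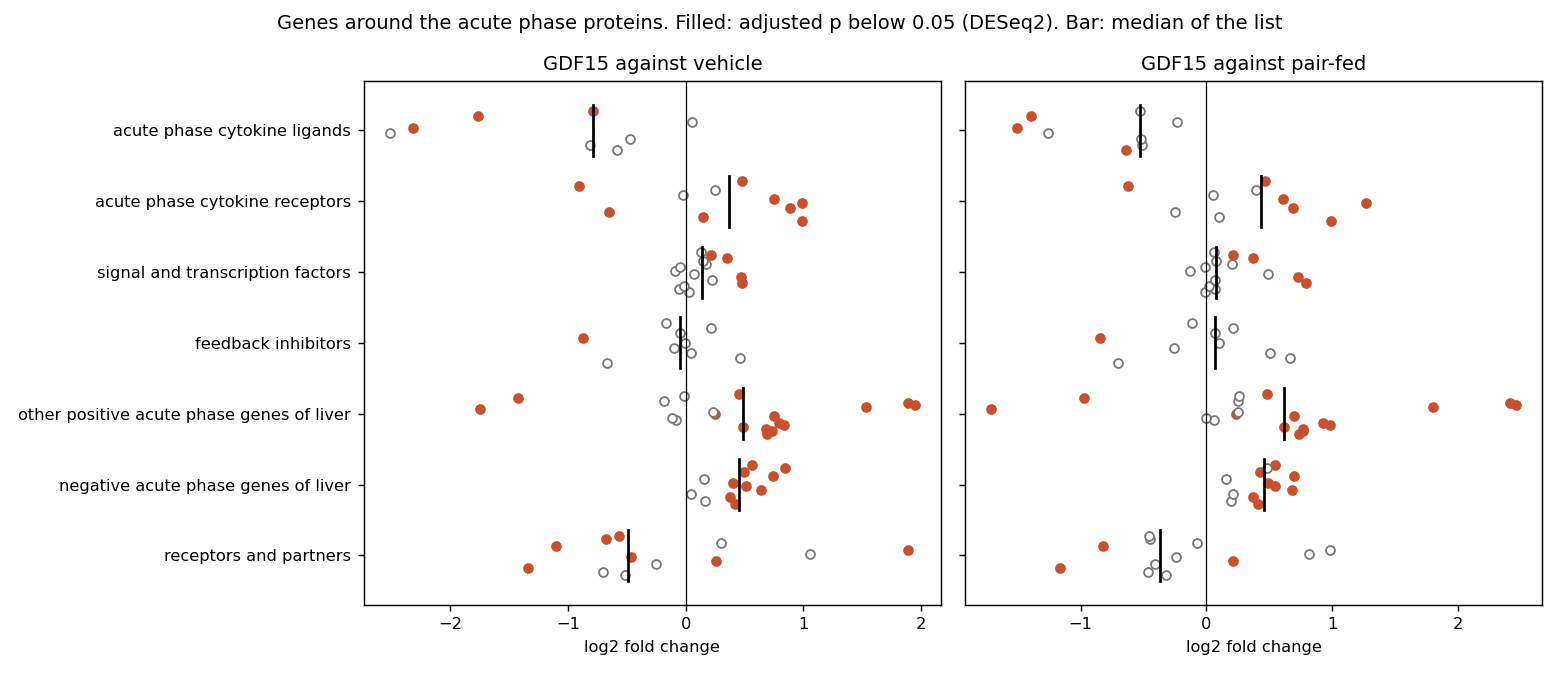
Log2 fold changes (x axis) of the genes of 7 lists around the acute phase proteins in GDF15 against vehicle and against pair-fed livers, one point per gene, filled where the DESeq2 adjusted p was below 0.05, with the median of the genes tested as a bar. Cytokine ligands lie mostly below 0, and both positive and negative acute phase genes lie mostly above 0 (medians 0.48 and 0.45 against vehicle).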

How the data were processed

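Liver RNA libraries were strand-specific and paired-end, and per the labels and the methods of the study the authors trimmed reads (Trim Galore), quantified them (Salmon, mm10) and deposited estimated counts per gene, rounded to whole numbers. Versions of these tools and the transcriptome release were not given in the sources used here. Totals per sample ran from 16508864 to 35301853 counts, and depth limited mainly genes near the floor of 3 counts. One table was fitted whole with DESeq2 1.42.0 (R 4.3.3, Wald test, median-of-ratios size factors, Benjamini-Hochberg adjustment over all genes tested, threshold 0.05) with group as the only term. edgeR 4.0.16 was the alternative, and both were tested on simulated data. Log2 values used a pseudocount of 1. The members and the 7 gene lists were chosen with earlier results of these data known. In each list the text names the 2 genes with the lowest adjusted p against vehicle, the 2 most abundant and the direct upstream genes, plus all 10 members and, for each member, the 2 genes with the most similar within-group deviations. 1 gene that this rule names is not reported here. Samples were not treated as paired by replicate number, and a partial pairing was not excluded. GENCODE vM21 gave coordinates and transcripts. The study describes these livers as coming from 6 mice per group, and samples are called mice here by their number in the labels.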

Additional observations from a re-analysis of the deposited data

Results flagged for a closer look

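Single livers far from the other 5 of their group, by the ratio of their gap to the nearest liver to the whole range, were sought in 129 groups of 6 values and found in 17. Chance alone picks about 1 in 20 groups. Of the 17, 11 were GDF15 mouse 4 as the highest of its group, 7 of them members: Saa1 at 68458, Saa2 at 66104, Orm1 at 32071, Orm2 at 4365, Lcn2 at 7558, Hp at 172077 and Apcs at 6573 normalized counts. The other 4 were C3 at 246823, Hpx at 182803, Trf at 530375 and Cebpb at 5514 normalized counts. GDF15 mouse 6 was the lowest of its group for Clcf1, at 31.3, and for Agt, at 11940 normalized counts. Among the controls, vehicle mouse 5 was the lowest for Orm3, at 103, vehicle mouse 6 the highest for Il6ra, at 1251, vehicle mouse 4 the highest for Socs3, at 833, and pair-fed mouse 4 the highest for Il6ra, at 1545 normalized counts.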

How the results depend on the processing

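Saa4 and Crp were higher in GDF15 livers under every alternative run, with log2 fold changes against vehicle of 0.58 to 1.17 and 0.29 to 0.39, and against pair-fed of 0.47 to 1.27 and 0.30 to 0.40, and passed in all but 1, Saa4 against pair-fed in replicates 4 to 6 (0.47, DESeq2 adjusted p = 0.0963). The number of members passing against vehicle was 3, all higher, and was 1 with the added fold rule. On leaving out single livers it ran from 2 to 5. It was 5 without GDF15 mouse 4, with Saa4 and Crp higher and Orm2, Lcn2 and Hp lower, so members and signs changed. Against pair-fed the number was 4, all higher, and ran from 2 to 4 on leaving out single livers. It was 2 with the fold rule, with the replicate block, in replicates 1 to 3 and in replicates 4 to 6. It was also 2 with the 3 smaller pair-fed libraries, and without GDF15 mice 4 and 6 together (chosen after seeing the data). Shares of all genes called in fits without single livers were not counted. Samples were not treated as paired by replicate number, since the rule asked every same-numbered pair to correlate above 0.1. Correlations of deviations between same-numbered GDF15 and vehicle livers ran from −0.22 to 0.27, with 2 of 6 above 0.1. Those between GDF15 and pair-fed ran from −0.16 to 0.18, with 3 of 6. Those between pair-fed and vehicle ran from −0.0068 to 0.52, with 3 of 6 (mean 0.17, against −0.03 for other numbers). These values cannot exclude a partial pairing by number. The replicate block moved the calls over all genes from 4885 to 4511 against vehicle, from 3894 to 3736 against pair-fed and from 0 to 3 for pair-fed against vehicle. With it, the log2 fold change of Saa2 against vehicle was 0.35 (DESeq2 adjusted p = 0.784), and those of Saa1 and Saa2 against pair-fed were 1.07 and 0.95 (DESeq2 adjusted p = 0.289 and 0.396), none passing.

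Changes of sign were these, all as log2 fold changes, and the cause was not tested. Against vehicle, replicates 1 to 3 gave −0.071 for Saa2, −0.027 for Orm1, −1.19 for Orm2, −1.17 for Lcn2 and −0.040 for Apcs, the replicate block −0.63 for Orm2 and −0.82 for Lcn2, leaving out GDF15 mice 4 and 6 −0.95 for Orm2 and −1.07 for Lcn2, and replicates 4 to 6 0.076 for Hp. Against pair-fed, replicates 1 to 3 gave −0.98 for Orm2, −1.10 for Lcn2 and −0.066 for Hp, the replicate block −0.095 and −0.46 for Orm2 and Lcn2, and leaving out GDF15 mice 4 and 6 −0.40, −0.75, −0.065 and −0.011 for Orm2, Lcn2, Hp and Apcs. For pair-fed against vehicle, where no member was called, replicates 4 to 6 gave −0.046 for Saa3 and 0.028 for Crp, the 3 larger pair-fed libraries −0.013 and 0.027 for them, replicates 1 to 3 −0.10 for Saa4 and −0.13 for Apcs, and the 3 smaller libraries −0.19 for Saa4, 0.10 for Lcn2 and −0.060 for Apcs. On leaving out single livers, values against vehicle ran from −0.16 to 2.43 for Saa2, −0.020 to 0.42 for Orm1, −1.20 to 0.31 for Orm2, −1.36 to 0.56 for Lcn2 and −0.34 to 0.10 for Hp. Against pair-fed they ran from −0.65 to 0.89 for Orm2, −1.04 to 0.98 for Lcn2, −0.18 to 0.26 for Hp and −0.045 to 0.59 for Apcs, and for pair-fed against vehicle from −0.036 to 0.11 for Saa3, −0.091 to 0.061 for Saa4 and −0.034 to 0.015 for Crp.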

Other observations

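In GDF15 mouse 4, genes outside the acute phase set stood apart as well. These were chosen after their values were seen and carry no test. Ddit4, an inhibitor of mTORC1 that stress and glucocorticoids raise, was at 1243 normalized counts against at most 247 in the other GDF15 livers, and Tsc22d3, a glucocorticoid-induced gene, at 3338 against at most 1470. Igfbp1, an insulin-repressed gene of the liver, was at 9044 against at most 3797, Lpin1 at 17905 against at most 7402, and Tat, an amino acid-degrading enzyme of hepatocytes, at 70252 against at most 30415. In all 5 of these genes mouse 4 was the highest of the 18 livers. Shc2, Ly6d and Syt12 also exceeded the next highest GDF15 liver widely, by 2.21, 2.10 and 1.94 on the log2 scale, against 2.33 for Ddit4. In these mouse 4 ranked only 9, 12 and 5 from the highest of the 18. A cause was not tested. The haemoglobin genes Hbb-b1 and Hba-a1 were at 11410 and 14047 normalized counts in mouse 4, against at most 4392 and 5924 in the other GDF15 livers.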
